A study of Mus musculus with 6 samples.

Results

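The genes described here are S100a8, S100a9, Camp, Ltf and Ctsg, 5 of the 561 genes counted in mouse splenocytes, the cells isolated from the spleen. They were taken by name, as rows whose RefSeq identifier maps to these symbols, and they were chosen by their measured counts in these same samples, over all groups. Every difference between groups for these 5 genes is therefore a description without a test. The mice of all groups were NZB/WF1 females, hybrids prone to a disease like lupus. They carried an implant with 17-beta estradiol (E2, the natural estrogen), an implant with 17alpha-ethinyl estradiol (EE, a synthetic estrogen that differs by an added ethynyl group) or an empty placebo implant from 6 to 7 weeks of age for 9 weeks. Each of the 3 groups held 2 samples, labelled 1 and 2 for E2, 11 and 14 for EE and 22 and 26 for placebo. The labels do not state the implant doses, or whether a sample came from 1 mouse or a pool. The p-values therefore reflect only the spread among these samples, and mostly a spread shared between genes of like level.

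Neutrophils are made in the bone marrow and, in mice, in the spleen as well, and they load their granules in an order. Azurophil granules, with serine proteases such as cathepsin G (Ctsg), are filled at an early stage of maturation. Specific granules, with lactoferrin (Ltf) and the cathelicidin precursor (Camp), are filled later. S100a8 and S100a9 encode calcium-binding proteins that pair as calprotectin, which is abundant in the cytosol of mature neutrophils, binds zinc and manganese and is a ligand of Toll-like receptor 4 when released.

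S100a8 and S100a9 lie next to each other on chromosome 3 with 0 annotated genes between them, and Camp and Ltf lie on chromosome 9 with 44 genes between them, in the RefSeq annotation of GRCm38.p6. Ctsg lies on chromosome 14. The 250 bases before the annotated start of each gene were searched on both strands for TTNNGNAA (C/EBP-like), GAGGAA (PU.1-like), the palindromic estrogen response element and its arm GGTCA, which the full element contains. Ltf held the only match to the GGTCA arm, and the E2 and EE counts of Ctsg overlapped. Sequences are shown for these genes and for the calprotectin pair. All are written 5′ to 3′ on the gene's strand from RefSeq (GRCm38.p6), with matches in capitals. The windows are chr3:90668821-90669070 on the plus strand for S100a8, chr3:90695722-90695971 on the minus strand for S100a9, chr9:111019042-111019291 on the plus strand for Ltf and chr14:56102575-56102824 on the minus strand for Ctsg.
S100a8: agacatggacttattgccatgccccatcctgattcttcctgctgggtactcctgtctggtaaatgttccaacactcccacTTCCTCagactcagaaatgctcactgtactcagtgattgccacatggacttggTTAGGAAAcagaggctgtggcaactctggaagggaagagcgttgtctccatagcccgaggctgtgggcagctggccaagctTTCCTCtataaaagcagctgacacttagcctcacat
S100a9: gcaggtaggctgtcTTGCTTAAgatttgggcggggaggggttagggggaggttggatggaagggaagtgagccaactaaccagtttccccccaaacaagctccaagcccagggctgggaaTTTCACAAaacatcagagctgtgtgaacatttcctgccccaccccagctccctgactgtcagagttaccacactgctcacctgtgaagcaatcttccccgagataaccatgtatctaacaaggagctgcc
Ltf: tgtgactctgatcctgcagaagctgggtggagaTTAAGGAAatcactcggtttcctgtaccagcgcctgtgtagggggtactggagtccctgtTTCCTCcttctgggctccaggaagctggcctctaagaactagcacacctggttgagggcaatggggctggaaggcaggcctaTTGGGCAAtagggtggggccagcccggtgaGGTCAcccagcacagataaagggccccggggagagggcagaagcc
Ctsg: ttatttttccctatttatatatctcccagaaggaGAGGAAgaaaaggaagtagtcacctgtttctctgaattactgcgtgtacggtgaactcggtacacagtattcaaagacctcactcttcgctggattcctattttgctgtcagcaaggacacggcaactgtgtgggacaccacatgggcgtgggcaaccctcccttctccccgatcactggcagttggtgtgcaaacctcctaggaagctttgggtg

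The windows of S100a8, S100a9 and Ltf held the C/EBP-like letters, which 36.9% of the 32851 RefSeq windows of this length hold. The PU.1-like letters stood in the windows of S100a8, Ltf and Ctsg, and in 23.3% of all windows. The GGTCA arm stood in 1 of the 5 windows and in 35.2% of all, and the full element in 0 of the 5 and in 0.0639% of all. The Camp window held none of the motifs. The 10 matches had 0 overlaps between different motifs. A match is a description of the letters and not a site.

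The values are barcode counts from an nCounter mouse immunology panel, which counts colour-coded probes hybridised to RNA without amplification. They were deposited as normalised counts and are used on that scale. The geometric mean of 12 named reference genes and 2 unnamed rows was level over the samples. The unnamed rows were picked because they made it level, so scaling to these 14 rows is inferred. The named genes alone ranged by 6.07%. Gene totals ranged from 646299 to 863942 per sample. The background, the mean of 8 negative controls plus 2 SD, lay between 10.1 and 13.7 counts. Splenocyte markers were well above it: the 7 B cell markers measured summed to 20383 to 42370 counts per sample and the 12 T cell markers to 8363 to 27054. Of 18 further granule and oxidase genes listed for neutrophils, 2 matched a named row (Cybb and Ncf4). The others, with the defining markers Mpo and Elane among them, were not analysed here. Nor was Ly6g, a defining marker from the neutrophil receptor list, of which 17 of 22 genes matched. In bulk samples, more cells of a type and more RNA per cell cannot be told apart.

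S100a8, a subunit of calprotectin, counted 103948 and 120698 under E2, 47517 and 54555 under EE, and 5169 and 3189 under placebo. The groups did not overlap, with E2 highest and placebo lowest. The means were 112323 ± 11844, 51036 ± 4977 and 4179 ± 1400 (SD, n = 2 each), 26.9-fold higher in E2 and 12.2-fold higher in EE than in placebo.

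S100a9, the other subunit, counted 63594 and 71032 in E2, 27545 and 31216 in EE, and 3413 and 2063 in placebo. Its order was that of S100a8, again without overlap. The mean was 24.6-fold higher in E2 and 10.7-fold higher in EE than in placebo.

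Camp, the precursor of the antimicrobial peptide cathelicidin, counted 14127 and 15047 in E2, 5913 and 6879 in EE, and 584 and 369 in placebo. The lowest E2 sample was 24.2 times the highest placebo sample, and the lowest EE sample 10.1 times. Of the 5 genes, Camp had the closest pair of E2 samples, with the higher 1.07 times the lower.

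Ltf, which encodes the iron-binding protein lactoferrin, was the least counted of the 5 in the estrogen samples, with 270 and 382 in E2, 146 and 166 in EE, and 26 and 25 in placebo. The groups did not overlap. The placebo counts were above the background, and the means were 12.8-fold higher in E2 and 6.12-fold higher in EE than in placebo, the smallest folds of the 5.

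Ctsg, the serine protease cathepsin G, counted 591 and 964 in E2, 519 and 612 in EE, and 29 and 10 in placebo. Both estrogen groups lay far above placebo, but E2 and EE overlapped, since the lower E2 sample was below the higher EE sample. The placebo 26 count was just under that sample's background of 10.1, and the placebo counts differed 2.9-fold, so the size of its folds (39.9 in E2 and 29.0 in EE over placebo) is uncertain.

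**Figure D1:**
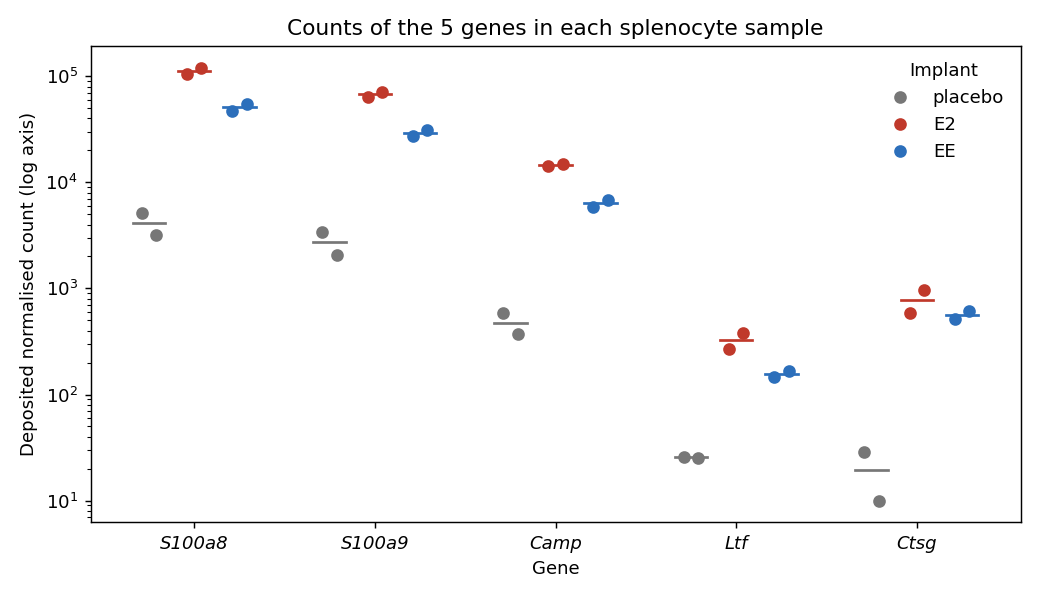
Deposited normalised counts of the 5 genes (log axis) in each sample, with points for samples and lines for group means (n = 2). Placebo samples lie lowest for every gene, E2 lies above EE without overlap for S100a8, S100a9, Camp and Ltf, and the lower E2 sample of Ctsg (591) lies under the higher EE sample (612).

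On the log2(value + 1) scale the median difference of the 5 genes was 4.79 in E2 and 3.65 in EE against placebo, and -1.14 in EE against E2. Over the 457 genes that averaged 20 counts or more the medians were -0.56, -0.69 and -0.11. For the 5 genes the differences ran from 3.60 (Ltf) to 5.38 (Ctsg) for E2 and from 2.56 (Ltf) to 4.96 (Ctsg) for EE. Both comparisons use the same placebo samples. All 5 genes passed the filter, and Ctsg, with a placebo mean of 19.5, did so through the estrogen groups. In E2 the samples of all 5 genes lay above both placebo samples, as did those of 18.2% of the genes tested. The share was 18.8% for EE, where all 5 lay above as well. In EE against E2, 4 of the 5 lay below without overlap, as did 40.7% of the genes tested. These values chose the genes and nothing is read from the counts.

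S100a8 gave the highest count of the 561 genes in both E2 samples, ranked 2 and 3 in EE 14 and 11, and ranked 26 and 45 in placebo 22 and 26. Its share of all gene counts was 12.8% and 15.6% in E2, 7.35% and 8.10% in EE, and 0.628% and 0.369% in placebo. All 5 genes together held 22.5% and 27.0% in E2, 12.6% and 13.9% in EE, and 1.12% and 0.655% in placebo. Probes can differ in efficiency, so these are shares of counts and not of transcripts.

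The other 556 genes summed to 627693 and 563221 counts in E2, 564659 and 579956 in EE, and 813591 and 858286 in placebo. On the reference-gene scale, both estrogen groups were therefore lower than placebo once the 5 genes were set aside, and the EE sums lay close to that of E2 replicate 2.

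**Figure D2:**
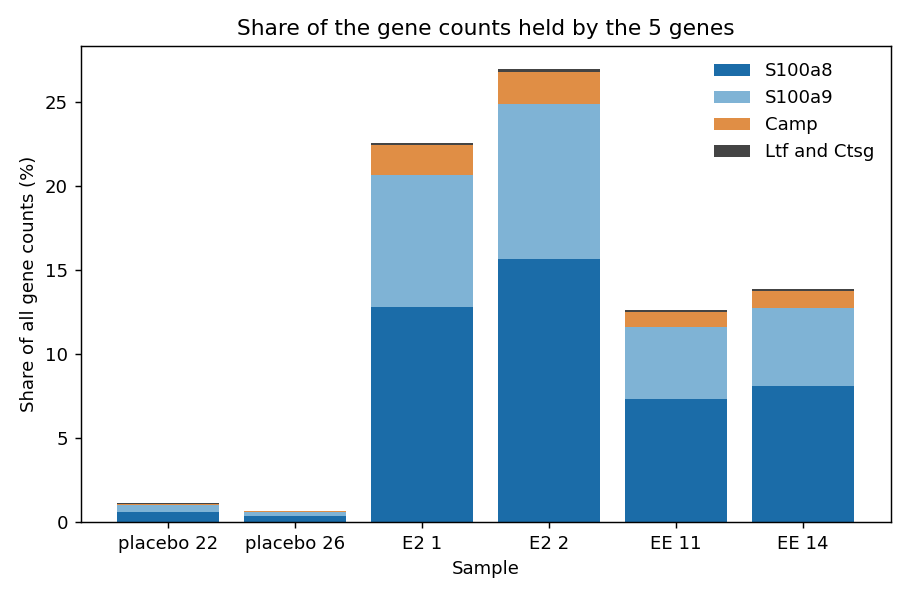
Share of all gene counts (%) held by the 5 genes in each sample, stacked by gene. The stacks reach 22.5% and 27.0% in E2, 12.6% and 13.9% in EE, and 1.12% and 0.655% in placebo, and S100a8 and S100a9 make up most of each.

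Ratios within a sample do not depend on the scaling. S100a9 counted 612 and 589 per 1000 S100a8 counts in E2, 580 and 572 in EE, and 660 and 647 in placebo. The ratio of the calprotectin subunits thus moved 1.15-fold at most, while S100a8 itself moved over a far wider range. Camp per 1000 S100a8 counts was 136 and 125 in E2, 124 and 126 in EE, and 113 and 116 in placebo, at most 1.20-fold apart.

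Ltf per 1000 S100a8 counts was 2.60 and 3.16 in E2, 3.07 and 3.04 in EE, and 5.03 and 7.84 in placebo. The placebo samples lay above all estrogen samples. With the mean of the negative controls subtracted, the placebo values were 3.73 and 6.16, and the highest estrogen value was 3.11.

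Ctsg per 1000 S100a8 counts was 5.69 and 7.99 in E2, 10.9 and 11.2 in EE, and 5.61 and 3.14 in placebo. Both EE samples lay above both E2 samples, and the mean ratio was 1.62 times that of E2. With the mean of the negative controls subtracted the EE values were 10.8 and 11.1 and the E2 values 5.63 and 7.94. Between EE and E2, the ratios of the 4 other genes to Ctsg differed by 0.62 to 0.78 on the log2 scale. These 4 ratios share the Ctsg counts, so they are not 4 separate results. How often the ratios of other gene pairs separate EE from E2 was not worked out. Among the 6 pairs without Ctsg, the differences were 0.0038 to 0.15. The EE minus E2 difference was -0.42 for the azurophil granule gene Ctsg, beside -1.19 for Camp and -1.04 for Ltf of the specific granules, with no test made. The Ctsg value rested on E2 counts that lay far apart: it was -0.77 without E2 replicate 1 and -0.068 without E2 replicate 2, where Ltf was -1.29 and -0.79 and Camp -1.24 and -1.15.

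**Figure D3:**
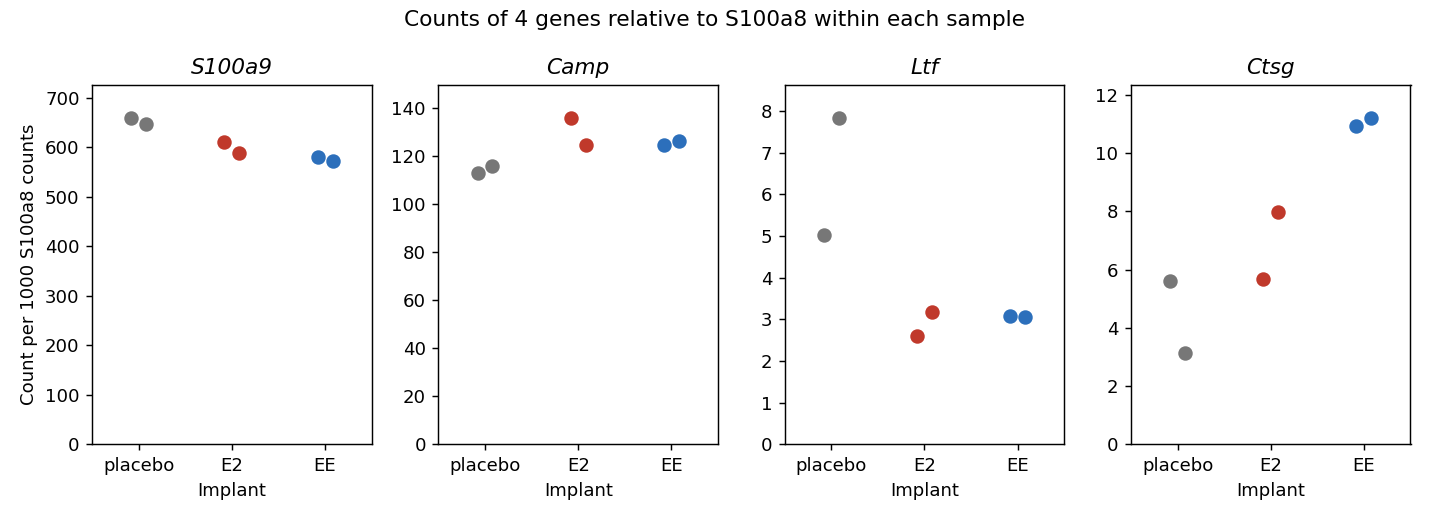
Counts of S100a9, Camp, Ltf and Ctsg per 1000 S100a8 counts within each sample, each panel with its own axis from 0 and points for samples. S100a9 and Camp stay within 1.15-fold and 1.20-fold over all samples, Ltf is highest in placebo (5.03 and 7.84) and Ctsg is highest in EE (10.9 and 11.2).

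Replicates differed in the same direction for all 5 genes. E2 replicate 2 was above replicate 1 for 5 of 5, where this held for 104 of the 457 genes tested (22.8%). In E2 replicate 2 the 12 T cell, 7 B cell and 6 NK cell markers measured were above replicate 1 in 0 cases. EE replicate 14 was above 11 for 5 of 5 (66.5% of the genes tested). There 11 of 12 T cell, 4 of 7 B cell and 5 of 6 NK cell markers were above. The B cell share (57.1%) lay under that of the genes tested. Placebo 22 was above 26 for 5 of 5 (41.4%), with Ltf apart by a single count, and for 2, 0 and 1 of these markers. The part of cell makeup or sample handling in these replicate differences was not tested.

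The rest of the pathway was read from 7 lists of genes by role, which leave the 5 genes out and hold 49 tested genes. The lists were drawn up with earlier results known. Tests used limma with Benjamini-Hochberg adjustment over the 457 genes. In E2 against placebo 13.8% of the genes tested were called higher and 59.5% lower, in EE against placebo 15.8% and 63.5%, and in EE against E2 5.25% and 10.9%. With trimmed-mean (TMM) scaling, the numbers called higher and lower in E2 against placebo went from 63 and 272 to 131 and 112, and in EE against placebo from 72 and 290 to 138 and 130, as the median over all genes moved from -0.56 to -0.013 and from -0.69 to -0.034. In EE against E2 they went from 24 and 50 to 33 and 25. Of the 12 named reference genes, 2 were called higher and 2 lower in E2 against placebo, and 4 and 2 in EE. With TMM, 11 and 10 of these reference genes were called higher and 0 lower. Which scale is level was not tested.

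Among neutrophil receptors and adhesion molecules, 8 of 13 tested genes rose and 2 fell in E2 against placebo, with a median of 0.66. Clec5a, a myeloid lectin receptor, counted 227 and 249 in E2 and 21 and 19 in placebo (3.51 ± 0.24 SE, limma adjusted p = 2.32e-33). Cxcr2, the receptor that draws neutrophils to CXC chemokines, counted 236 and 282 in E2 and 86 and 47 in placebo (2.003 ± 0.22, limma adjusted p = 3.77e-16). Itgam, the integrin chain CD11b, counted 778 and 843 in E2 and 275 and 227 in placebo (1.69 ± 0.15, limma adjusted p = 2.39e-21). The groups did not overlap for any of these 3 genes, and each kept its call under every alternative tried. Ltb4r1, Trem1, Fcgr3, Csf3r and Ptafr were also called higher. Csf3r, the receptor of the granulocyte growth factor G-CSF, counted 208 and 222 in E2 and 163 and 108 in placebo (0.69 ± 0.21), and its call was lost without placebo replicate 26 (adjusted p = 0.106). The integrin chain gene Itgb2, which T and B cells also carry, fell by 0.42. With TMM, Itgb2 turned to 0.13 and the list had 10 genes higher and 1 lower.

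In EE against placebo 6 of the 13 rose and 3 fell, with a median of 0.23. Clec5a counted 119 and 116 in EE (2.498 ± 0.24, limma adjusted p = 4.83e-20), Itgam 435 and 505 (0.90 ± 0.15) and the leukotriene B4 receptor gene Ltb4r1 73 and 74 (1.26 ± 0.25). Without placebo replicate 26 the number called higher was 3, and on positive controls it was also 3. The call of Cxcr2 (0.75) was lost in both settings. That of Fcgr4, a receptor for IgG, rested on placebo counts of 646 and 256, and its difference turned from 0.57 to -0.091 without placebo replicate 26. That call was also lost without either E2 replicate, which enter through the shared spread. Itgb2 (-0.61) and Ceacam1 (-0.43) were among those that fell, and they turned to 0.047 and 0.23 with TMM, where 9 were higher and 1 lower. The Ceacam1 call was also lost without EE replicate 11 (-0.19, adjusted p = 0.52), placebo replicate 22 (0.141) or placebo replicate 26 (0.0602).

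The direct comparison of the estrogens, 1 pair at doses not given, asked where EE and E2 differ. In EE, 9 of the 13 receptor genes were lower and 1 higher, where 10.9% and 5.25% of all genes tested were called. The differences were -1.34 ± 0.25 for Trem1 (SE, limma adjusted p = 5.84e-06), an amplifying receptor of myeloid cells, -1.25 ± 0.22 for Cxcr2 (1.72e-06), -0.9998 ± 0.21 for Csf3r (4.56e-05) and -0.79 ± 0.15 for Itgam (2.24e-05). For Clec5a and Ltb4r1 they were -1.01 ± 0.24 and -1.04 ± 0.25. The median of the 13 genes was -0.71, beside -0.11 over all genes tested. Ceacam1 lay at -0.71, Itgb2 at -0.20 without a call, and Fcgr4, the gene called higher, at 0.61. For S100a8, S100a9, Camp and Ltf the differences were -1.04 to -1.20, and for Ctsg -0.42. Trem1 counted 53 and 64 in EE, 137 and 163 in E2 and 61 and 40 in placebo, so EE overlapped placebo. Csf3r counted 110 and 104 in EE and overlapped placebo likewise. Over the samples left out in turn and the scalings, 6 to 9 receptor genes were called lower, the one higher call was lost without EE replicate 14 or either E2 replicate, with TMM and on positive controls, and the call of Ltb4r1 was lost without E2 replicate 2 (adjusted p = 0.0862).

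**Figure D4:**
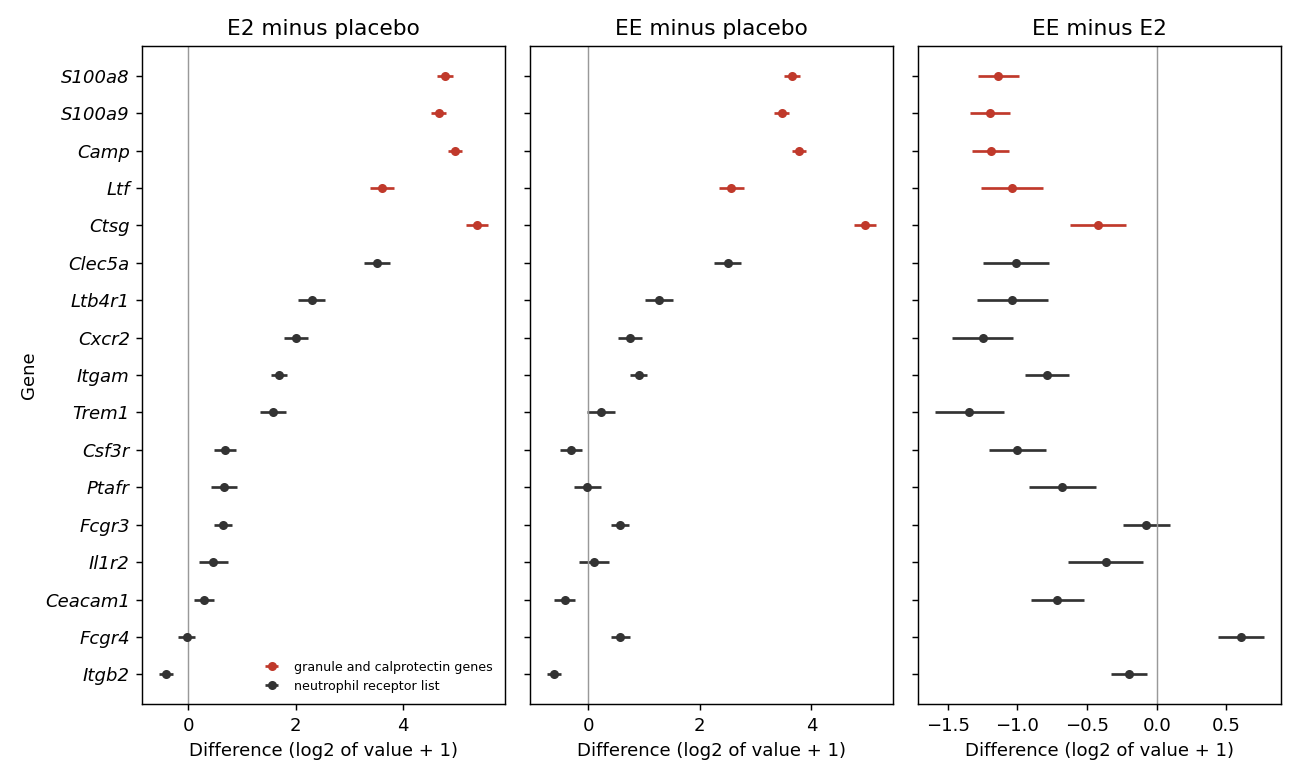
Differences between groups on the log2(value + 1) scale for the 5 granule and calprotectin genes (red) and 12 of the 13 tested genes of the neutrophil receptor list (black), with bars of ± 1 SE from limma. Against placebo the receptors lie below the 5 genes, closest for Clec5a (3.51, and 3.60 for Ltf, in E2). In EE minus E2, Trem1, Cxcr2, Ltb4r1, Clec5a and Csf3r lie at -0.9998 to -1.34, and S100a8, S100a9, Camp and Ltf at -1.04 to -1.20. Ceacam1 (-0.71), Itgb2 (-0.20) and Fcgr4 (0.61) lie above these values.

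Of the oxidase genes, Cybb, the membrane subunit of the phagocyte NADPH oxidase, counted 3871 and 3610 in E2, 2519 and 2717 in EE and 3376 and 3449 in placebo. Ncf4, a cytosolic subunit, counted 1190 and 1358, 904 and 908, and 1397 and 1360. Both missed the threshold in E2 against placebo (0.13 and -0.12, limma adjusted p = 0.35 and 0.437), while 2 of 2 were called higher there with TMM. Both were lower in EE than in E2 (-0.51 and -0.49) and than in placebo (-0.38 and -0.60). With TMM, however, the EE to placebo differences turned to 0.28 and 0.056. On that scale Cybb was called higher in EE than in placebo (limma adjusted p = 0.0106), and the call of Ncf4 in EE against E2 was lost. Of these 2 genes, 0 were called lower in EE against E2 without EE replicate 11, and 1 without EE replicate 14 or without E2 replicate 2. In EE against placebo 1 was called lower without EE replicate 11. Several other myeloid and B cells carry these oxidase genes.

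Among receptors and adaptors that calprotectin can act through, 2 of 11 tested genes rose and 5 fell in E2 against placebo, and 3 rose and 6 fell in EE. Over all genes tested, 13.8% were called higher and 59.5% lower in E2, and 15.8% and 63.5% in EE. Cd14, the co-receptor of Toll-like receptor 4, counted 309 and 319 in E2, 294 and 354 in EE and 237 and 158 in placebo (0.70 and 0.73). Tlr4 counted 309 and 294, 352 and 381, and 249 and 239, and it was called in EE (0.58, limma adjusted p = 0.00103) but not in E2 (0.30, 0.0931). The scavenger receptor gene Cd36 rose in both (1.04 and 1.38). The Irak family genes Irak1, Irak2, Irak3 and Irak4 fell in both, from -0.68 to -1.02 in E2 and from -0.62 to -1.03 in EE. Beside these values, the medians over all genes tested were -0.56 and -0.69. With TMM the calls of Irak1, Irak2 and Irak3 were lost in E2 and those of Irak1 (turned to 0.042) and Irak3 in EE. The call of Cd14 was lost in E2 without placebo replicate 26 (adjusted p = 0.063), and on positive controls those of Cd14 and Tlr4 were lost in EE (0.059 and 0.234). TMM scaling gave 5 higher and 1 lower in E2, and 5 and 2 in EE. In EE against E2, 0 of the 11 were called by limma at an adjusted p under 0.05, and 1, a higher one, at an unadjusted p under 0.05.

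Of 6 tested inflammatory products, 0 rose and 3 fell in E2 against placebo, and 2 rose and 4 fell in EE. Calls over all genes tested were 13.8% higher and 59.5% lower in E2, and 15.8% and 63.5% in EE. On the TMM scale 2 of the 6 products were higher and 0 lower in both. Without E2 replicate 2, 0 were lower in E2, and 1 was higher in EE without placebo replicate 26 or either EE replicate. Il1b, the cytokine interleukin-1 beta, counted 194 and 132 in E2, 97 and 134 in EE and 350 and 193 in placebo (-0.70 and -1.18). Both calls were lost with TMM, and the E2 call also without E2 replicate 2 or placebo replicate 22. Regulators of granulocyte formation had 0 of 7 higher and 3 lower in E2, and 0 higher and 6 lower in EE, against 2 and 3, and 1 and 3, with TMM. At an unadjusted p under 0.05 in limma, the deposited scale also gave 0 higher for the inflammatory products in E2 and for these regulators in both. Cebpb, a transcription factor of emergency granulopoiesis, counted 356 and 350 in E2, 261 and 264 in EE and 479 and 331 in placebo. It was called lower in EE (-0.60) and not in E2 (-0.17), and its EE call was lost without placebo replicate 22 and turned to 0.060 with TMM. Stat3, Runx1 and the macrophage growth factor gene Csf1 fell in both comparisons, by 0.89 to 1.39 in E2 and by 0.97 to 1.27 in EE.

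Of 5 tested attractants, the complement gene C3 rose in E2 (1.74) and EE (1.22), and Cxcl12, which holds neutrophils in the marrow, rose in EE (1.09), while Ccl3, Ccl4 and the Cxcl12 receptor gene Cxcr4 fell in both. The calls of Ccl4 and Cxcr4 were lost with TMM, where Cxcr4 turned to 0.076 in E2 and 0.046 in EE, and the E2 call of Ccl4 also without E2 replicate 2 or placebo replicate 22. The EE call of Ccl4 was lost on column totals, as was that of Cxcr4, and without EE replicate 11, which left 2 of the 3 lower. Over all genes tested, 59.5% were called lower in E2 and 63.5% in EE. All 5 tested lysosomal and cytotoxic granule proteases fell in both comparisons on the deposited scale, while TMM gave 3 lower in E2, and 1 higher and 2 lower in EE. Without EE replicate 11, 3 were lower in EE. Among them, Ctsc, the protease that activates cathepsin G and its relatives, counted 442 and 390 in E2, 402 and 441 in EE and 703 and 771 in placebo (-0.82 and -0.80). Its EE call was lost with TMM and its E2 call with median-of-ratios scaling (adjusted p = 0.0539). Gzma, a lymphocyte granule protease, fell by 2.35 and 2.24, and the perforin gene Prf1 fell as well (-1.45 and -1.88).

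The genes whose log2 profile over the 6 samples was most like the mean of the 5 standardised profiles were Clec5a (Pearson r = 0.994), the reference gene G6pdx (0.986), the chemokine gene Ccl12 (0.977), C3 (0.973), the proteasome gene Psmb7 (0.973), Ltb4r1 (0.966), Tgfb3 (0.965) and Itgam (0.962). Spearman rho was 1 for G6pdx, Ccl12, Ltb4r1 and Itgam, 0.943 for Clec5a and C3, 0.829 for Psmb7 and 0.638 for Tgfb3. The 6 points come in 3 pairs and share the reference scale, so r says little beyond the order of the pairs, and Psmb7 reached it with differences of 0.36 in both comparisons. Ccl12 counted 65 and 84 in E2, 27 and 30 in EE, and 9 and 5 in placebo, under the background in both placebo samples (13.7 and 10.1), so the size of its differences from placebo is uncertain.

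Markers of other cell types differed between groups, though the monocyte and macrophage sums of E2 overlapped those of placebo. The shares of all genes tested called higher and lower were 13.8% and 59.5% in E2 and 15.8% and 63.5% in EE against placebo. In EE against E2 they were 5.25% and 10.9%. Monocyte and macrophage markers summed to 7186 and 7280 counts in E2, 10720 and 12135 in EE, and 7370 and 6072 in placebo. Of 8 tested, 1 was called higher and 2 lower in E2 against placebo, 5 higher and 2 lower in EE against placebo, and 5 higher and 1 lower in EE against E2, where the neutrophil receptors were mostly lower. With TMM the E2 counts became 6 higher and 0 lower, and without E2 replicate 2 they were 0 and 0. The 5 higher in EE against E2 became 3 without E2 replicate 1 and 2 without EE replicate 14. Erythroid, megakaryocyte and platelet markers summed to 16023 and 16260 in E2, 20435 to 21322 in EE and 2503 to 3239 in placebo, with 7 of 8 higher in E2 and 8 of 8 in EE. T cell markers fell in 12 of 12 cases, B cell markers in 7 of 7 and NK cell markers in 5 of 5 in both comparisons on the deposited scale. The TMM counts of lower markers were 11 and 12 for T cells, 4 and 6 for B cells and 4 and 4 for NK cells in E2 and EE, with 0 higher. In EE against E2, 6 of 8 erythroid, megakaryocyte and platelet markers were higher, and 2 or 3 were when either E2 or either EE replicate was left out. There 4 of 12 T cell markers were lower, 0 without E2 replicate 1 or EE replicate 11 and 2 without EE replicate 14, and 1 of 5 NK and 0 of 7 B cell markers. On positive controls 9 T cell and 5 B cell markers were lower, and at an unadjusted p under 0.05 in limma 8 and 5 on the deposited scale. Of the mast cell, basophil and eosinophil markers 1 was tested, Ccr3, which was higher in E2 (0.69) and EE (1.07). Klra1 was the one marker at or under the background in all samples. The part of these shifts in the values of the 5 genes was not tested.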

How the data were processed

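RNA of 6 splenocyte samples was counted on an nCounter panel, and the deposited table held 575 rows, 561 genes and 14 spike-in controls. The deposited values are scores, not raw counts: the geometric mean of the 12 named reference genes and 2 unnamed rows ranged by 0.0599% over the samples, the closest of 66 pairs of unnamed rows (next 1.76%), while positive controls ranged by 31.9%. The sources used here do not give the authors' scaling and background steps. The count model planned was therefore replaced by limma 3.58.1 (R 4.3.3, trend) on log2(value + 1) of the values as deposited, with group means over all 6 samples and 3 residual degrees of freedom. The prior had 232.5 degrees of freedom, so the spread is largely shared between genes of like level. A pseudocount of 1 understates the change of low genes. The filter was a mean of at least 20, which kept 457 genes. Two-sided p-values were adjusted by Benjamini-Hochberg, with a threshold of 0.05.

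Symbols came from a RefSeq gene table (GRCm38.p6), which named 549 gene rows and left 12 unnamed. Members and lists were chosen with earlier results of these data known. Named besides the members were, per role list and comparison, up to 3 genes called in each direction by lowest p, then Csf3r, Itgam, Ctsc, Tlr4, Cd14 and Cebpb, and the 8 most alike profiles, with some left out for brevity and Ptafr, Fcgr3 and others listed after their values were seen. On simulated data for E2 against placebo (457 genes), 97% of 2-fold and 100% of 4-fold changes were called, and 2.72% of unchanged genes. The simulated spread depended only on a gene's level, and as many genes rose as fell. The rates therefore need not hold for the real data. Alternatives were other scalings, pseudocounts, filters, background subtraction, a looser threshold and samples left out. All value columns belonged to a sample. For 1 gene of the receptor list, counted in its totals, values are not reported here.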

Additional observations from a re-analysis of the deposited data

How the results depend on the processing

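The 5 genes kept the sign of every difference under the 18 alternatives, with a median from 4.44 to 5.35 in E2 and from 3.30 to 4.34 in EE against placebo, and from -1.37 to -0.88 in EE against E2. Some alternatives, such as the filters, the looser threshold and the fit of only the groups compared, cannot change these differences. The genes were chosen by these counts, so the kept signs are a description. With TMM the numbers of genes called higher and lower were 131 and 112 in E2 against placebo and 138 and 130 in EE against placebo, with 25 lower in EE against E2. For the genes of the 7 role lists they were 22 and 9, and 21 and 9, against 11 and 21, and 13 and 29, as deposited, and the medians of the 5 genes were 5.33 and 4.31. Median-of-ratios scaling gave 135 and 104, 142 and 124, and 25, with 22 and 8, and 21 and 9, in the role lists, and medians of 5.35 and 4.34. Scaling on column totals gave 16 role-list genes lower in EE against placebo, and in EE against E2 83 higher and 17 lower, 7 and 6 of them in the role lists, with a median of -0.88. Scaling on positive controls gave 40 higher in EE against placebo, 7 in the role lists, and in EE against E2 10 higher and 117 lower, 1 higher in the role lists, with a median of -1.37. With only the groups compared, or an adjusted p under 0.1, 4 role-list genes were higher in EE against E2.

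With TMM and median-of-ratios scaling the sign turned in E2 against placebo for Casp1 (0.041 and 0.059), Cxcr4 (0.076 and 0.094) and Itgb2 (0.13 and 0.15), and in EE against placebo for Ceacam1 (0.23 and 0.26), Cebpb (0.060 and 0.087), Cxcr4 (0.046 and 0.073), Cybb (0.28 and 0.31), Irak1 (0.042 and 0.069), Itgb2 (0.047 and 0.075) and Ncf4 (0.056 and 0.083). Cybb was called higher in EE against placebo on both of these scales (limma adjusted p = 0.0106 and 0.0069). Fcgr4 in EE against placebo turned to -0.091 without placebo replicate 26 and was 1.24 without placebo replicate 22. TMM and median-of-ratios scaling raise every difference from placebo by construction, and the cause of the other changes was not tested.

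Leaving out each sample in turn gave 7 to 28 genes higher and 15 to 49 lower in EE against E2, and 1 to 4 and 6 to 12 in the role lists. The lowest counts were those without EE replicate 14 (7 higher) and without EE replicate 11 (15 lower), and without E2 replicates 1 and 2 they were 14 and 19, and 13 and 30. In E2 against placebo the counts were 48 to 65 and 225 to 270, and in EE against placebo 56 to 76 and 238 to 287. A lone sample is then assumed to vary like the other groups. Scaling on the 12 named reference genes was added after seeing the data. The planned count models were not run, because the values are not raw counts. Counts near 10 have little precision, which limits Ctsg and Ccl12 in placebo. No paired analysis was possible because the groups share no replicate numbers.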
